A study of Homo sapiens with 9 samples.

Results

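The genes described here encode the cornified envelope, the protein shell that keratinocytes build under the cell membrane late in differentiation, together with other proteins of the outer epidermis. They were chosen by symbol: all genes whose symbols begin with SPRR or LCE followed by a digit, 29 in number, and 21 further genes listed by name. The count table held all 50 of them among 52402 gene symbols. SPRR2C among them is listed in RefSeq as a transcribed pseudogene. The libraries came from HaCaT, a human keratinocyte line that divides without limit, kept for 24 h with small broken pieces of polystyrene plastic (fragmented polystyrene, fPS) at 25 µg/ml (fPS 25) or 100 µg/ml (fPS 100), or in DMEM without fPS (control). Cells of all groups were grown in DMEM with 10% fetal bovine serum, and poly(A)-selected RNA was sequenced in 3 libraries per group. Whether the 3 libraries of a group came from separate cultures is not stated in the labels, and a p-value here covers just the spread among the libraries.

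In the epidermis, keratinocytes leave the basal layer, move outwards and switch on these genes in turn. Involucrin, envoplakin and periplakin line the membrane first, transglutaminases then crosslink small proline-rich (SPRR) proteins, loricrin and late cornified envelope (LCE) proteins onto them, and filaggrin binds keratin filaments before it is cut into amino acids that hold water. The SPRR and LCE genes and those for involucrin, loricrin and the filaggrin family stand side by side on chromosome 1, in the epidermal differentiation complex (EDC).

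HaCaT cells carried the basal program and little of the late one. Of the 50 genes, 16 had no count in any library, 22 had counts below the filter for testing, and 12 passed it. The filter asked for about 0.428 CPM in at least 3 libraries, CPM being counts scaled to a common library size. The 10 keratinocyte markers, among them KRT5, KRT14 and TP63, all had counts, with a summed level of 6580 to 6886 CPM in control, 6013 to 6270 CPM in fPS 25 and 6903 to 9496 CPM in fPS 100. Within that sum the markers moved in different directions. For fPS 100 against control 4 of the 10 rose, 1 fell and 5 did not pass at an edgeR adjusted p under 0.05, with a median log2 change of 0.30. Of all tested genes 15.2% rose and 14.8% fell. KRT5 fell to 1348 ± 99.2 CPM in fPS 100, against 2064 ± 141 CPM in control (SD, n = 3 each; log2 −0.62 ± 0.10, SE; edgeR adjusted p = 0.00122). KRT14 averaged 87.6 ± 35.2 CPM in fPS 100 and 132 ± 12.9 CPM in control (SD, n = 3 each) and passed the test when replicate 3 of fPS 100, described next, was left out (log2 −0.96, adjusted p = 5.32e-04; −0.59, adjusted p = 0.0687 with it). The 4 that rose were KRT15 by 0.78 (log2; edgeR adjusted p = 0.0266), PERP by 0.31 (0.0287), TP63 by 0.42 (0.0312) and ITGB4 by 0.32 (0.0481). Without replicate 3 of fPS 100 these were 1.06 (adjusted p = 2.18e-05), 0.38 (0.00241), 0.27 (0.0611) and 0.24 (0.0850), so TP63 and ITGB4 lost their calls. SFN had 2113, 2429 and 5078 CPM in fPS 100 against 1641 to 2485 CPM in control, so the top of the summed range comes from replicate 3 of fPS 100. Of the 68002 reads on the 50 genes in all 9 libraries, 64607 fell on CSTA, EVPL and PPL, and 380 fell on the 22 genes below the filter.

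Total counts were 16.4M to 29.3M per library. Replicate 3 of fPS 100 stood apart from the other libraries of its group: on the second principal component, with 18.7% of the variance, it lay at 35.2, and replicates 1 and 2 at −19.0 and −9.91. Mitochondrial transcripts for proteins took 2.09% of its counts other than ribosomal RNA, and 5.34% and 4.62% in replicates 1 and 2. Replicate 2 of control was near it on both measures, at 30.6 on that component and 2.32%. Replicates 1 and 3 of control were at 13.1 and 1.18 on the component, with 3.42% and 3.53%. Ribosomal RNA took 6.06% to 8.48% of counts in the fPS 100 libraries and at most 13 counts in any other library. In every comparison with fPS 100, the dose therefore cannot be told apart from this difference between the libraries. Results that rest on replicate 3 are given with and without it. Markers of other cell types were low or at 0. Of 7 fibroblast genes, 6 had counts, with a sum of 10.1 to 16.9 CPM over all libraries and LUM at 0. Of the 2 tested, COL3A1 was called lower with fPS 100 against control (log2 −1.47, edgeR adjusted p = 0.0484; −1.96, adjusted p = 0.0248 without replicate 3). It had 9, 11 and 10 reads in control and 2, 3 and 6 in fPS 100. All 6 melanocyte genes had counts, with a sum of 3.18 to 4.46 CPM. Of 6 immune genes, 5 had counts. The immune sum was 8.29 to 9.95 CPM in control, 11.8 to 13.9 CPM in fPS 25 and 18.4 to 19.8 CPM in fPS 100, most of it CD68, a lysosomal protein, which rose by 1.16 ± 0.11 with fPS 100 and by 0.59 ± 0.12 with fPS 25, each against control (log2, SE; edgeR adjusted p = 4.30e-05 and 0.0154). Of 5 endothelial genes, 4 had counts and KDR was at 0, with a sum of 1.26 to 1.98 CPM in control, 1.80 to 2.57 CPM in fPS 25 and 2.42 to 8.38 CPM in fPS 100. Of these CDH5, a cadherin of vessels, rose by 3.22 ± 0.79 with fPS 100 against control (log2, SE; edgeR adjusted p = 0.0111), with 0.848, 1.499 and 7.43 CPM in fPS 100 against 0.236 to 0.489 CPM in control, and by 1.74 without replicate 3 (adjusted p = 0.00965). The part of these markers in the results was not tested.

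The sequences before the starts of 5 EDC genes are shown because the SPRR1 genes, LCE1C and FLG changed between the groups and SPRR2A had reads in a single library. Each runs over the 250 bases before the gene's start in RefSeq (GRCh38.p14), 5′ to 3′ on the gene's strand. Capitals mark matches to TGANTCA, the letters that AP-1 factors of the Fos and Jun families bind, and to TATAAA, the usual box just before many gene starts.
SPRR1A, chr1:152983831-152984080, plus strand: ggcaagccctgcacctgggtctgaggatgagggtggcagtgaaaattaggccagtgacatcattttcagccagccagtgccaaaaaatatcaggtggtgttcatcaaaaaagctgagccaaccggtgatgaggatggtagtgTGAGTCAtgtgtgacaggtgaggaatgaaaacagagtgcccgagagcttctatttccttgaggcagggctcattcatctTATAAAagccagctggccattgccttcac
SPRR1B, chr1:153030953-153031202, plus strand: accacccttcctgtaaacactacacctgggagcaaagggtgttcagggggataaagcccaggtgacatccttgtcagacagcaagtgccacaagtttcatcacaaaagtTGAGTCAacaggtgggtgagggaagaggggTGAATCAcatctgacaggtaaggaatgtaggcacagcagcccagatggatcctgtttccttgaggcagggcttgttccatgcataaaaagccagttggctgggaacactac
SPRR2A, chr1:153057513-153057762, minus strand: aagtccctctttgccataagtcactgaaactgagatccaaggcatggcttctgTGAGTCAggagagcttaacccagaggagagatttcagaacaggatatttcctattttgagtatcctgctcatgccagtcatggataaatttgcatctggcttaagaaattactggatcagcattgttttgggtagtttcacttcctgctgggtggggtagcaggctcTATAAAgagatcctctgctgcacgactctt
LCE1C, chr1:152806652-152806901, minus strand: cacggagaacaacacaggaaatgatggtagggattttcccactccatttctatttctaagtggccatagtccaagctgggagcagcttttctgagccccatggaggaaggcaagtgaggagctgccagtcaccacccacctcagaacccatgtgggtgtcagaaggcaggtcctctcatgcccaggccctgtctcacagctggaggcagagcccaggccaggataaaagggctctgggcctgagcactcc
FLG, chr1:152325240-152325489, minus strand: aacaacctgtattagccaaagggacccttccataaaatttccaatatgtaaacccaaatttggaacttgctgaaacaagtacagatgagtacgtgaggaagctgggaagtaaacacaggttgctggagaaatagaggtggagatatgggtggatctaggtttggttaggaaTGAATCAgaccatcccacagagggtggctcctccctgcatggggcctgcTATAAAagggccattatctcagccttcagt

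SPRR1A holds 1 AP-1 match, at position −108 from the gene's start, and a TATAAA at −29. SPRR1B holds a pair of AP-1 matches, at −141 and −111, and no TATAAA. SPRR2A holds an AP-1 match at −197 and a TATAAA at −30, FLG holds them at −79 and −30, and neither motif is in LCE1C. Both strands were searched, over 250 bases before and 50 after each start, and no AP-1 match overlapped a TATAAA match. The RefSeq promoter table had 41 of the 50 genes. Of these, 14 (34.1%) held the AP-1 letters, against 7.71% of 35116 promoters of the same length. By family, 6 of 8 SPRR promoters and 0 of 17 LCE promoters held them. TATAAA stood anywhere in the window in 21 of the 41 (51.2%), against 11.5% of all promoters, and in 7 of 8 SPRR and 8 of 17 LCE promoters. In LCE1A (−207 and −205) and LCE1E (−220) the matches were not just before the start. GCGTG, the core letters bound by the aryl hydrocarbon receptor, stood in 9 of the 41 (22%), against 36.5% of all promoters, in 0 of 8 SPRR and in 5 of 17 LCE promoters. A match describes the letters and is not a site shown to be bound.

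With fPS 100, RNA of 4 of the 12 tested genes rose against control: SPRR1A, SPRR1B, LCE1C and PPL. RNA of 1, FLG, fell, and 7 did not pass the test. With fPS 25 against control 0 rose and ASPRV1 alone fell. Calls are at an adjusted p under 0.05 in edgeR's quasi-likelihood test with Benjamini-Hochberg adjustment over 14637 genes. In that fit 30.0% of all genes were called for fPS 100 against control, 15.2% as rises and 14.8% as falls. For fPS 25 against control 5.25% of all genes were called, and the count of 0 rises was 2 at an unadjusted p under 0.05 (PPL and SPRR1B) and 0 in DESeq2 and in limma-voom. The median log2 fold change of the 12 was 0.17 with fPS 100 and −0.02 with fPS 25, each against control, beside 0.01 and −0.01 for all tested genes. SPRR1A and LCE1C passed the filter by their fPS 100 libraries and ASPRV1 by its control libraries, so counts over the 12 favour genes that differ. In RNA from whole cultures, fewer cells of a type and less RNA per cell cannot be told apart.

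**Figure D1:**
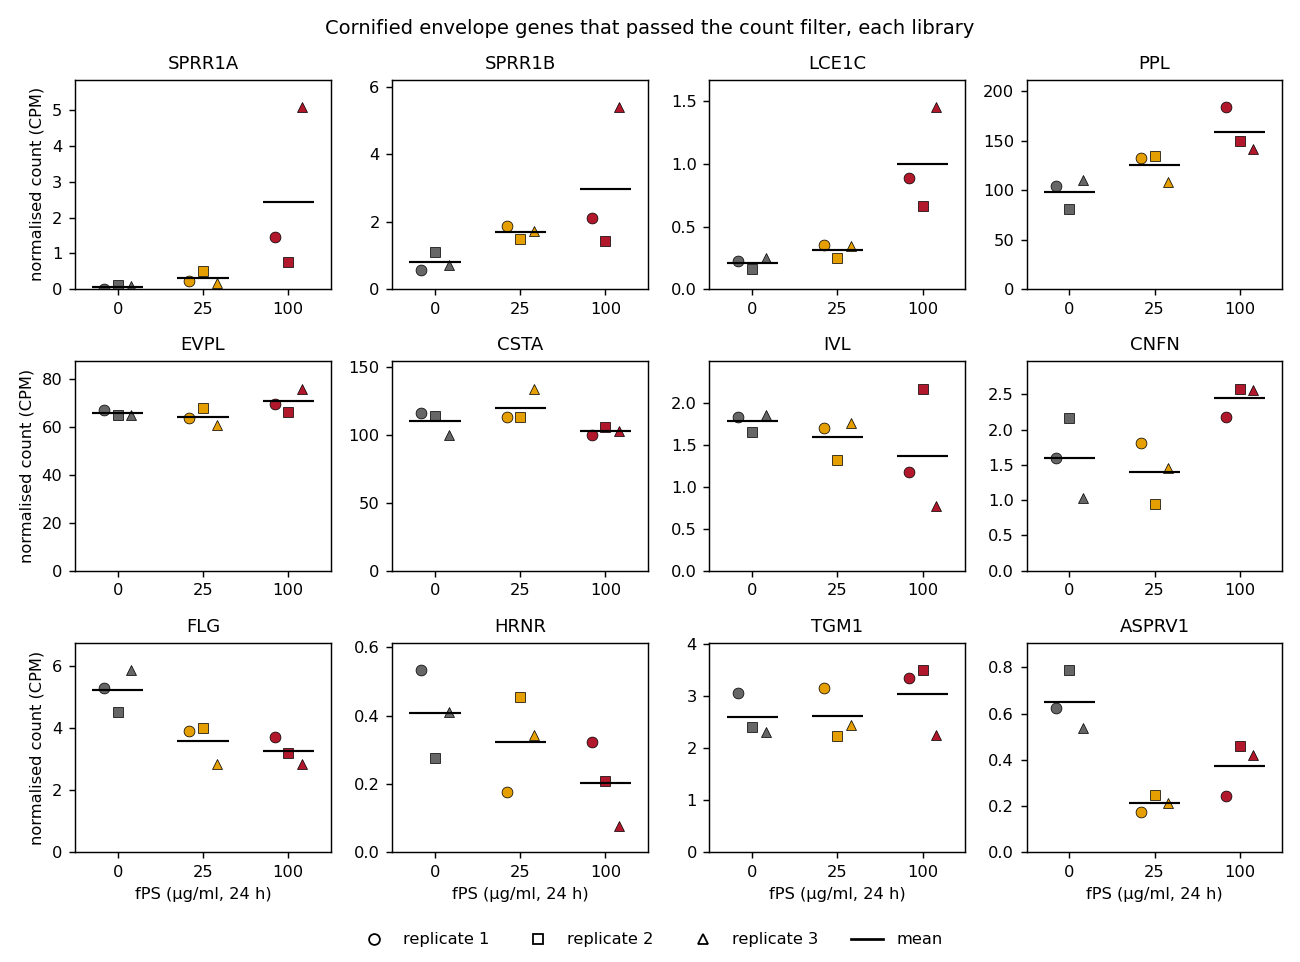
Normalised counts (CPM, vertical axes, each from 0) of the 12 genes that passed the filter, at 0, 25 and 100 µg/ml fPS for 24 h; each point is a library, marker shapes give the replicate number, and the line is the mean of 3. SPRR1A, SPRR1B and LCE1C are highest in replicate 3 of fPS 100, and PPL in replicate 1 of fPS 100.

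SPRR1A and SPRR1B encode small proline-rich proteins that transglutaminase crosslinks into the envelope as bridges. In 9 libraries SPRR1A had 0, 3 and 2 reads in control, 4, 12 and 4 in fPS 25 and 36, 18 and 133 in fPS 100. As normalised counts these were 0, 0.118 and 0.0825 CPM in control, 0.234, 0.496 and 0.171 CPM in fPS 25 and 1.45, 0.749 and 5.09 CPM in fPS 100. The fPS 100 libraries lay above all others, every fPS 25 library lay above every control library, and replicate 3 of fPS 100 was more than 3 times as high as the next. The control values are at or below the level of 3 reads, so the fold against control rests on 5 reads there. That level is 0.102 to 0.183 CPM of the raw library total, which differs slightly from the normalised CPM given here.

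The mean of SPRR1A was 2.43 ± 2.33 CPM in fPS 100, against 0.0668 ± 0.0606 CPM in control (SD, n = 3 each), and it rose by 5.04 ± 0.91 on the log2 scale (SE; 95% interval 3.04 to 7.04; edgeR adjusted p = 0.00189). Without replicate 3 of fPS 100 the rise was 3.90 (adjusted p = 0.00122), and without replicate 2 of control it was 5.67 (adjusted p = 0.0105). Against fPS 25, whose mean was 0.300 ± 0.172 CPM (SD, n = 3), the fPS 100 value was higher by 2.97 ± 0.73 (log2, SE; edgeR adjusted p = 0.0201), and by 1.83 without replicate 3 of fPS 100 (adjusted p = 0.0358). That call was lost without replicate 1 of fPS 25 (2.85, adjusted p = 0.0783) and without its replicate 3 (2.67, adjusted p = 0.0847), and the value was 3.59 without its replicate 2 (adjusted p = 0.0470). It was also lost in limma-voom (adjusted p = 0.0680) and with the authors' log2 values in limma (adjusted p = 0.0773). For fPS 25 against control the difference of 2.07 ± 1.21 did not pass the test (edgeR adjusted p = 0.366), although the libraries did not overlap.

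SPRR1B was the higher of the pair in control. It had 0.578, 1.10 and 0.701 CPM in control, 1.87, 1.49 and 1.71 CPM in fPS 25 and 2.10, 1.42 and 5.40 CPM in fPS 100. All 6 libraries with fPS lay above all 3 controls, while fPS 25 and fPS 100 overlapped, and replicate 3 of fPS 100 was again the highest. With 2.97 ± 2.13 CPM in fPS 100 against 0.794 ± 0.274 CPM in control (SD, n = 3 each), SPRR1B rose by 1.89 ± 0.46 (log2, SE; edgeR adjusted p = 0.00969). Leaving out replicate 3 of fPS 100 brought this to 1.13 (adjusted p = 0.0132). The fPS 25 mean of 1.69 ± 0.193 CPM (SD, n = 3) was 1.07 ± 0.48 above control on the log2 scale, which did not pass (edgeR adjusted p = 0.238). Without replicate 3 of fPS 100 in the common fit, that difference of 1.07 passed (adjusted p = 0.0316), as it did without the filter (0.0158) and when fPS 100 was kept out of the fit (0.0393). Against fPS 25, the fPS 100 value was 0.82 ± 0.43 higher (edgeR adjusted p = 0.235; 0.0411 without the filter), and 0.07 higher without replicate 3 (adjusted p = 0.905). On the authors' log2 scale, which is per gene length, SPRR1A and SPRR1B had mean levels of 0.14 and 1.22 in control, 0.58 and 2.01 in fPS 25 and 2.06 and 2.48 in fPS 100.

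The SPRR2 genes encode shorter proteins of the same kind, apart from SPRR2C, a transcribed pseudogene in RefSeq. None of the 7 in the table passed the filter. SPRR2A had 0 reads in 8 libraries and 108 reads, or 4.13 CPM, in replicate 3 of fPS 100. SPRR2E had 0 reads in the same 8 libraries and 14 in that replicate. SPRR2D had 35 reads there, 1 and 2 in the other fPS 100 libraries, 0 in each fPS 25 library and 2, 2 and 0 in control. Of the 164 reads on these 3 genes, 157 stood in that single library. No fold is given because replicates 1 and 2 of fPS 100 were at or under 3 reads. SPRR2F had 1 read in each fPS group and 0 in control, and SPRR2B, SPRR2C and SPRR2G had 0 throughout. SPRR3 had 1 read in each group, and SPRR4 had 4 in control, 5 in fPS 25 and 2 in fPS 100. Every library other than replicate 3 of fPS 100 held 0 to 2 SPRR2 reads.

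Counts of close copies are less certain than those of single genes. Of the windows of 50 bases in SPRR1A exons (GENCODE 29, GRCh38), 11.3% also occurred in SPRR1B. In SPRR2A 32.7% occurred in another of the 50 genes, in SPRR2D 19.3%, in SPRR2E 23.4% and in LCE1C 22.6%. How the authors' counting treated reads with more than 1 match is not given in the sources used here.

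**Figure D2:**
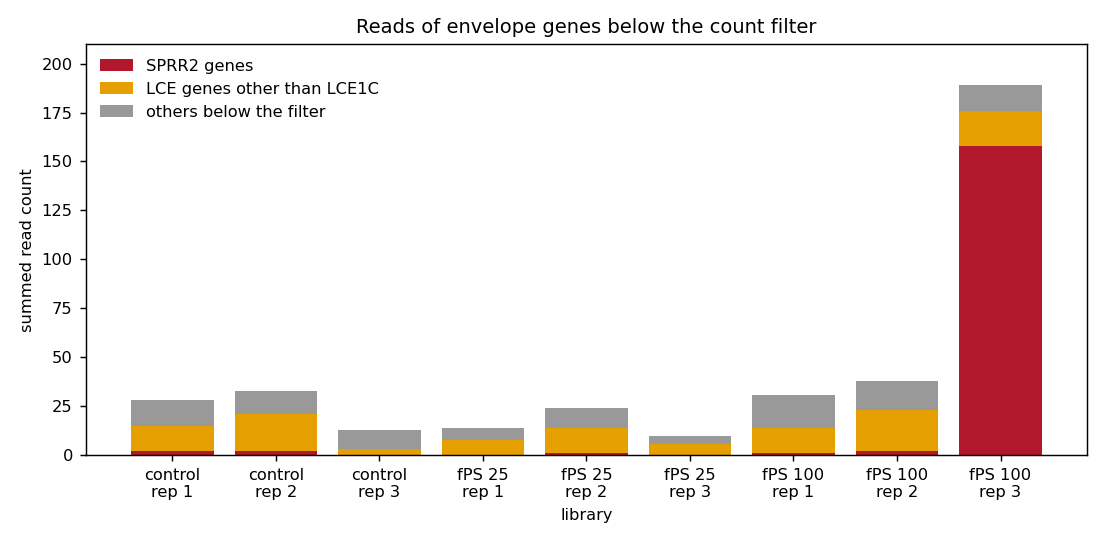
Summed read counts (vertical axis, from 0) of the 22 genes with reads below the filter, by library, split into SPRR2 genes, LCE genes other than LCE1C, and the others. Replicate 3 of fPS 100 held 189 reads, 158 of them on SPRR2 genes, and each other library held 10 to 38.

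LCE1C was the only 1 of 18 LCE genes to pass the filter. LCE proteins are crosslinked onto the envelope late, as it matures. LCE1C had 5, 4 and 6 reads in control, 6, 6 and 8 in fPS 25 and 22, 16 and 38 in fPS 100. In normalised counts this was 0.222, 0.157 and 0.247 CPM in control, 0.351, 0.248 and 0.343 CPM in fPS 25 and 0.888, 0.666 and 1.45 CPM in fPS 100. The 3 fPS 100 libraries lay above the other 6, and fPS 25 lay just above control without overlap. LCE1C rose to 1.00 ± 0.407 CPM in fPS 100, against 0.209 ± 0.0464 CPM in control (SD, n = 3 each), by 2.25 ± 0.40 on the log2 scale (SE; edgeR adjusted p = 0.00186). Against 0.314 ± 0.0573 CPM in fPS 25 (SD, n = 3) it was 1.68 ± 0.39 higher (log2, SE; edgeR adjusted p = 0.0147). Without replicate 3 of fPS 100 these differences were 1.88 (adjusted p = 0.00345) and 1.31 (adjusted p = 0.0321). The difference from fPS 25 was lost without replicate 2 of fPS 25 (1.53, adjusted p = 0.0819). The fPS 25 value was 0.57 ± 0.48 above control and did not pass (edgeR adjusted p = 0.551).

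The other LCE genes did not share that level. Summed without LCE1C, they had 13, 19 and 3 reads in control, 8, 13 and 6 in fPS 25 and 13, 21 and 18 in fPS 100, which overlap. By group, reads were 9 in control, 4 in fPS 25 and 18 in fPS 100 for LCE1B, 16, 6 and 8 for LCE5A, 6, 6 and 5 for LCE1E, and 3, 9 and 9 for LCE1F. LCE1D had 1 read, in fPS 25. Of the LCE3 genes, which are known to be induced in injured and psoriatic skin, LCE3D had 9 of its 12 reads and LCE3E its 2 reads in replicate 3 of fPS 100. The other 10 (LCE1A, LCE2A to LCE2D, LCE3A to LCE3C, LCE4A and LCE6A) had no read in 9 libraries. That allows up to 0.102 to 0.183 CPM of the raw total per library for counting error.

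Loricrin (LOR), the most abundant protein of the envelope in skin, had no read in any library, and repetin (RPTN) and CRCT1 of the same complex had none. Involucrin (IVL), an early precursor that lines the membrane, ranged from 1.65 to 1.86 CPM in control, 1.32 to 1.76 CPM in fPS 25 and 0.766 to 2.16 CPM in fPS 100. Its groups overlapped, and the difference between fPS 100 and control was −0.38 ± 0.32 (log2, SE; edgeR adjusted p = 0.401). It became a call when replicate 2 of fPS 100, the highest IVL library, was left out (−0.87, adjusted p = 0.0439), and was −0.09 without replicate 3, the lowest (adjusted p = 0.814). IVL and SPRR1A, which lie in the same complex, were thus not highest in the same library.

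PPL encodes periplakin and EVPL envoplakin, the plakins that pair under the membrane and tie the early envelope to intermediate filaments. PPL had 104, 80.6 and 110 CPM in control, 133, 134 and 109 CPM in fPS 25 and 184, 150 and 142 CPM in fPS 100. Each fPS 100 library exceeded each library of the other groups, with replicate 1 and not replicate 3 the highest, and fPS 25 overlapped control through its replicate 3. EVPL had 67.0, 65.1 and 65.3 CPM in control, 64.0, 67.97 and 60.8 CPM in fPS 25 and 69.8, 66.6 and 76.1 CPM in fPS 100, and the 3 groups overlapped. PPL rose to 159 ± 22.5 CPM in fPS 100, against 98.3 ± 15.6 CPM in control (SD, n = 3 each), a fold of 1.61 (log2 0.69 ± 0.14, SE; edgeR adjusted p = 0.00378). Without replicate 3 of fPS 100 the log2 value was 0.77 (adjusted p = 0.00196). The fPS 25 mean of 125 ± 14.5 CPM (SD, n = 3) was 0.35 ± 0.14 above control (log2, SE; edgeR adjusted p = 0.186), and fPS 100 was 0.34 ± 0.14 above fPS 25 (adjusted p = 0.135), neither of which passed. Without the filter the first of these passed (adjusted p = 0.0439). For EVPL the difference between fPS 100 and control was 0.11 ± 0.08 on the log2 scale (edgeR adjusted p = 0.370), with a 95% interval of −0.08 to 0.29 that lies below the PPL estimate. The difference between the changes of these genes was not tested.

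CSTA encodes cystatin A, a protease inhibitor that is built into the envelope early. By length it stood highest of the 12, with a mean over 9 libraries of 7.08 on the authors' log2 scale, against 4.15 for PPL, 3.24 for EVPL and 2.27 or less for the other 9. CSTA had 116, 114 and 99.6 CPM in control, 113, 113 and 134 CPM in fPS 25 and 99.9, 105 and 103 CPM in fPS 100. Control spanned the fPS 100 values. The difference between fPS 100 and control was −0.10 ± 0.10 (log2, SE; 95% interval −0.31 to 0.11; edgeR adjusted p = 0.475).

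**Figure D3:**
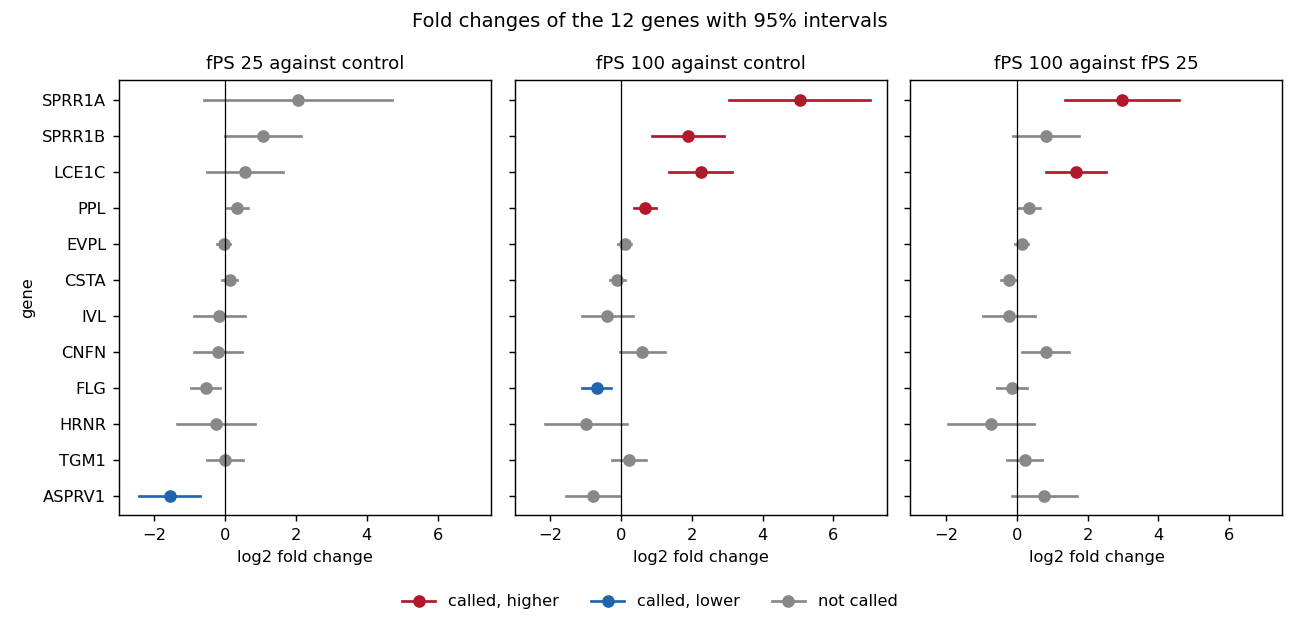
Log2 fold changes (horizontal axes) of the 12 tested genes with 95% intervals, in a panel per comparison; red and blue mark genes called higher and lower at an adjusted p under 0.05, grey those not called. SPRR1A, SPRR1B, LCE1C and PPL are red and FLG blue for fPS 100 against control, ASPRV1 alone is blue for fPS 25 against control, and SPRR1A and LCE1C are red for fPS 100 against fPS 25.

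Transglutaminases make the crosslinks. TGM2, which is not among the chosen genes, also passed the filter and is counted with the other envelope and EDC genes below. Of the transglutaminases among the chosen genes (TGM1, TGM3 and TGM5), TGM1 alone passed the filter. It had 3.07, 2.40 and 2.31 CPM in control, 3.16, 2.23 and 2.44 CPM in fPS 25 and 3.35, 3.50 and 2.26 CPM in fPS 100. The groups overlapped, with replicate 3 of fPS 100 the lowest of its group, and the difference between fPS 100 and control was 0.23 ± 0.22 (log2, SE; 95% interval −0.26 to 0.72; edgeR adjusted p = 0.475). TGM3 had 2 reads in control, 0 in fPS 25 and 1 in fPS 100, and TGM5 had 0, 1 and 5.

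FLG encodes profilaggrin, the precursor of filaggrin. It had 5.29, 4.53 and 5.86 CPM in control, 3.92, 4.01 and 2.83 CPM in fPS 25 and 3.71, 3.21 and 2.83 CPM in fPS 100. All 3 controls lay above all 6 libraries with fPS, and the fPS groups overlapped each other. FLG fell to 3.25 ± 0.442 CPM in fPS 100, against 5.22 ± 0.667 CPM in control (SD, n = 3 each), by −0.68 ± 0.19 on the log2 scale (SE; edgeR adjusted p = 0.0175). It was −0.59 without replicate 3 of fPS 100 (adjusted p = 0.0322). The call was lost without replicate 1 of control (adjusted p = 0.0551), without replicate 3 of control (0.0607), without replicate 2 of fPS 100 (0.0511) and with the authors' log2 values in limma (0.0656). For fPS 25 against control the difference of −0.55 ± 0.19 did not pass (edgeR adjusted p = 0.124). Exons of FLG-AS1, on the opposite strand, cover 5.5% of the exon bases of FLG. FLG-AS1 had 2.85 to 3.47 CPM in control, 2.74 to 3.01 CPM in fPS 25 and 2.07 to 3.67 CPM in fPS 100, and with the strand setting not given, reads of the shared stretch cannot be told apart.

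HRNR (hornerin), a filaggrin relative, ranged from 0.276 to 0.533 CPM in control, 0.175 to 0.454 CPM in fPS 25 and 0.0766 to 0.323 CPM in fPS 100. The groups overlapped, and the fPS 100 value of −0.99 ± 0.53 against control did not pass (log2, SE; edgeR adjusted p = 0.182). FLG2 had 8 reads in control, 3 in fPS 25 and 9 in fPS 100.

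ASPRV1 encodes the protease SASPase, which cuts profilaggrin. It had 0.622, 0.787 and 0.536 CPM in control, 0.175, 0.248 and 0.214 CPM in fPS 25 and 0.242, 0.458 and 0.421 CPM in fPS 100. Every control library was above every library with fPS, and the lowest values were in fPS 25, not at the higher dose. The mean was 0.212 ± 0.0362 CPM in fPS 25 against 0.648 ± 0.128 CPM in control (SD, n = 3 each), a fall of −1.57 ± 0.39 (log2, SE; edgeR adjusted p = 0.0427). Leaving out any 1 control replicate gave adjusted p values of 0.101, 0.175 and 0.0558, leaving out any 1 fPS 25 replicate gave 0.165, 0.145 and 0.141, and leaving out replicate 2 of fPS 100 gave 0.0599, so the call of ASPRV1 rests on each of these 7 libraries. It was also lost without the filter (adjusted p = 0.0661), and DESeq2 gave no adjusted p. In fPS 100 the mean of 0.374 ± 0.115 CPM (SD, n = 3) was −0.79 ± 0.35 from control and did not pass (log2, SE; edgeR adjusted p = 0.109). CASP14, a protease that completes filaggrin breakdown, had 6 reads in control, 1 in fPS 25 and 3 in fPS 100.

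CNFN (cornifelin), an envelope component, ranged from 1.03 to 2.16 CPM in control, 0.950 to 1.81 CPM in fPS 25 and 2.18 to 2.58 CPM in fPS 100. The fPS 100 libraries lay above all others, by a narrow margin over replicate 2 of control, and the difference did not pass against control (0.61 ± 0.29, log2, SE; edgeR adjusted p = 0.136) or against fPS 25 (0.81 ± 0.30, adjusted p = 0.0951). The remaining genes had few reads. In the order control, fPS 25 and fPS 100 they were 5, 2 and 7 for CALML3, 1, 2 and 0 for CALML5, 2, 3 and 4 for CDSN, which links the outermost cells, 4, 2 and 8 for KRTDAP and 2, 0 and 5 for SBSN. Of the exon bases of CDSN, 93.8% are shared with PSORS1C1 on the opposite strand.

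For fPS 100 against fPS 25, SPRR1A and LCE1C rose, 0 fell and 10 did not pass, where 13.7% of all tested genes were called (6.31% as rises, 7.43% as falls). The count of 0 falls was 1 at an unadjusted p under 0.05 (CSTA) and 0 in DESeq2 and in limma-voom. The median log2 fold change of the 12 was 0.28, beside 0.02 for all tested genes. SPRR1A and LCE1C passed the filter by their fPS 100 libraries, so the count of rises and this median are pushed upwards by the filter. This comparison shares its fPS 100 libraries with that against control, so the calls of SPRR1A and LCE1C in both are not independent of each other.

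On the map, 36 of the 50 genes lie on chromosome 1 between positions 152153595 and 153262124 (GRCh38.p14), a stretch of 1108.5 kb, and 6 of these passed the filter. SPRR1A (152984081 to 152985814) and SPRR1B (153031203 to 153032900) start 47.1 kb apart. LCE1C (152804832 to 152806651) starts 177.4 kb from the start of SPRR1A, and FLG (152302165 to 152325239), which fell, starts 658.8 kb from it. SPRR2A, SPRR2D and SPRR2E lie within a stretch of 54.8 kb that SPRR2D and SPRR2E bound. The other 14 genes lie elsewhere, and 6 of them passed, among them PPL on chromosome 16 (4882507 to 4937148) and EVPL on chromosome 17 (76006845 to 76027306). Between LCE1C and SPRR1A stand LCE1A and LCE6A without a read, LCE1B with 31 reads and SPRR4 with 11 over all libraries. IVL, which passed the filter and was not called in any comparison, stands there too.

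**Figure D4:**
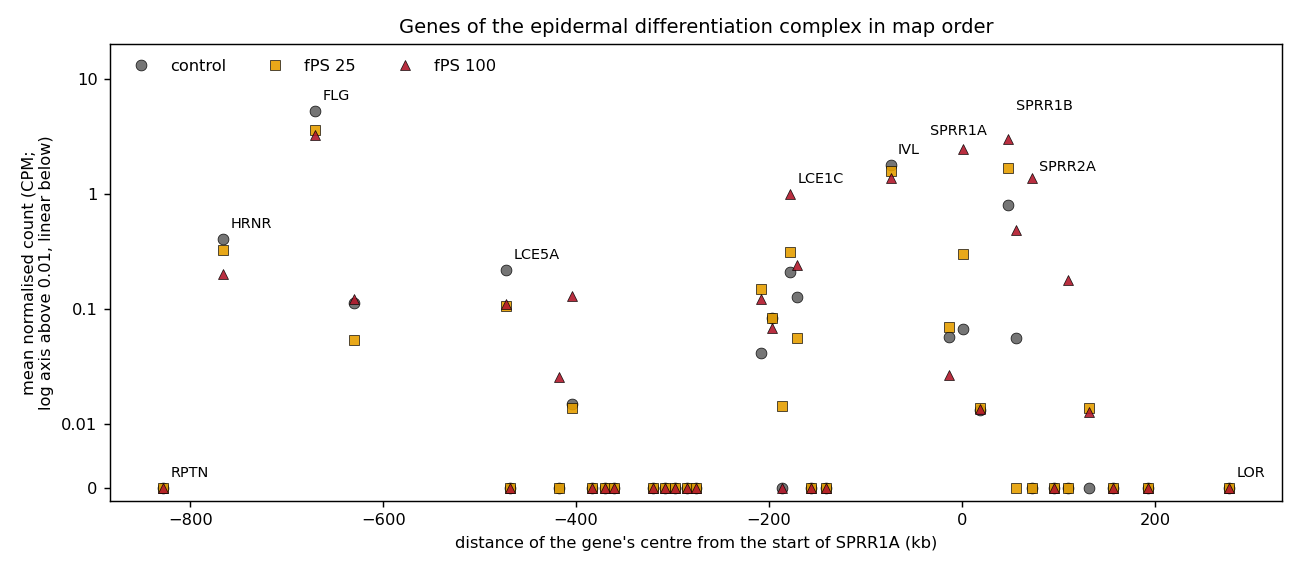
Mean normalised count (CPM, vertical axis, logarithmic above 0.01 and linear below) of the 36 genes of the epidermal differentiation complex against the distance of each gene's centre from the start of SPRR1A (kb, horizontal axis), for control, fPS 25 and fPS 100 (3 libraries each). FLG stands highest in control at the left, LCE1C, SPRR1A and SPRR1B highest in fPS 100, and 157 of the 164 reads of SPRR2A, SPRR2D and SPRR2E stood in replicate 3 of fPS 100.

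Genes around the envelope were counted in 5 lists, for fPS 100 against control and on the same test. Each count is also given without replicate 3 of fPS 100, in a fit that called 37.9% of all tested genes, 18.9% as rises and 19.0% as falls, against 15.2% and 14.8% with it. Of 15 tested suprabasal keratins and desmosomal proteins, 1 rose, 1 fell and 13 did not pass, with a median of −0.07. KRT13, a keratin of inner mucosa, averaged 8.58 ± 1.70 CPM in fPS 100 and 22.4 ± 2.73 CPM in control (SD, n = 3 each), a log2 change of −1.38 ± 0.20 (SE; edgeR adjusted p = 4.06e-04). KRT17, a keratin of injured skin, averaged 390.2 ± 195 CPM in fPS 100 and 187 ± 18.3 CPM in control (SD, n = 3 each), a log2 change of 1.06 ± 0.26 (SE; edgeR adjusted p = 0.0121). Its fPS 100 libraries had 272, 283 and 616 CPM, and the change was 0.57 without replicate 3 (adjusted p = 0.00137). When replicate 3 of fPS 100 was left out, 2 rose (DSC2 and KRT17) and 3 fell (KRT13, KRT16 and KRT6A). KRT6A was then −0.72 (log2, edgeR adjusted p = 1.66e-04) and KRT16 −0.60 (0.00533), opposite in direction to KRT17. With all libraries they were −0.33 (adjusted p = 0.276) and −0.03 (0.960).

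Of 11 other envelope and EDC genes, 3 rose and 8 did not pass, with a median of 0.20. They were CSTB, a cystatin like CSTA, by 0.43 ± 0.08 (log2, SE; edgeR adjusted p = 0.00271), CLIC3, an intracellular chloride channel protein, by 1.11 ± 0.24 (adjusted p = 0.00578), and TCHH, trichohyalin of hair follicles, by 1.10 ± 0.27 (adjusted p = 0.00959). With replicate 3 of fPS 100 left out, 4 rose (ZNF185 added) and 2 fell (LYPD3 and TGM2). TGM2 was −2.65 (log2, edgeR adjusted p = 6.80e-05) without that replicate and −0.60 (0.558) with it. It had 50, 74 and 74 reads in control and 12, 9 and 117 in fPS 100. PI3, which encodes elafin, a protease inhibitor crosslinked by transglutaminase, is given here because of its values. It had 32, 38 and 15 reads in control, 10, 10 and 18 in fPS 25 and 20, 48 and 5193 in fPS 100. As with SPRR2A, the reads in replicate 3 of fPS 100 stood far above all other libraries, at 199 CPM against at most 2.0 CPM, and PI3 did not pass (5.83 ± 2.15, log2, SE; edgeR adjusted p = 0.0868; 0.25 without replicate 3, adjusted p = 0.686). Some genes below the filter did the same. S100A7, S100A8 and S100A9 of this list had 809, 874 and 791 reads there, and KRT6B, SERPINB3 and SERPINB4 of other lists 120, 599 and 813. None of these had more than 14 reads in any other library. S100A12 had 1 read there.

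Of 10 enzymes that make the lipid envelope, 1 rose and 9 did not pass, with a median of −0.05. It was ELOVL4, which lengthens very long fatty acids, by 0.67 ± 0.10 (log2, SE; edgeR adjusted p = 4.50e-04). With replicate 3 of fPS 100 left out, 1 rose and 2 fell (ABHD5 and ELOVL1). Of 24 transcription regulators of keratinocyte differentiation, 13 rose, 1 fell and 10 did not pass, with a median of 0.57, where 15.2% of all tested genes rose. ELF3, an epithelial ETS factor, rose by 0.85 ± 0.11 (log2, SE; edgeR adjusted p = 2.47e-04), and JUND, a part of AP-1, by 0.75 ± 0.10 (edgeR adjusted p = 2.72e-04). KLF4, which drives barrier formation in mouse skin, was the regulator that fell, to 41.9 ± 0.698 CPM in fPS 100 against 59.8 ± 6.56 CPM in control (SD, n = 3 each; −0.51 ± 0.09, log2, SE; edgeR adjusted p = 0.00184). Without replicate 3 of fPS 100, 13 regulators rose and 2 fell, and TP63 lost its call (adjusted p = 0.0611).

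Of 15 proteases and inhibitors of filaggrin processing and shedding, 4 rose, 2 fell and 9 did not pass, with a median of 0.33. TMPRSS13, a membrane serine protease, rose by 2.66 ± 0.32 (log2, SE; edgeR adjusted p = 1.52e-04), and KLK5, a kallikrein of shedding, by 0.74 ± 0.09 (edgeR adjusted p = 2.19e-04). SPINK5, the inhibitor of kallikreins, fell to 2.76 ± 1.03 CPM in fPS 100, against 9.70 ± 0.595 CPM in control (SD, n = 3 each; −1.81 ± 0.23, log2, SE; edgeR adjusted p = 2.23e-04). The others called were KLK11 and ST14 as rises and CTSV as a fall. Leaving out replicate 3 of fPS 100 gave 5 rises and 2 falls, without ST14 (adjusted p = 0.0549). For fPS 25 against control, where 5.25% of all tested genes were called, all calls were in the last 2 lists. Among the regulators 2 rose, CEBPA being 1 of them, and KLF4 fell, and BLMH, which completes filaggrin breakdown, rose among the proteases. For fPS 100 against fPS 25, where 6.31% of all tested genes rose and 7.43% fell, the lists held, in the same order, 1 rise and 1 fall of 15, 1 rise of 11, 2 rises and 1 fall of 10, 9 rises of 24, and 3 rises and 1 fall of 15.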

How the data were processed

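RNA of 9 HaCaT libraries was analysed, 3 per group, grouped by the sample titles. The authors deposited raw read counts per gene row and library, and, per sample, log2 values of 1 plus a level scaled for gene length and depth, with the kind of scaling not stated. Per the submitters' processing notes, bcl2fastq was used and the build was GRCh38.p14. For the aligner, counter, annotation and strand setting, nothing is given in the sources used here. Rows of a symbol were summed, which gave 52402 symbols from 58173 rows.

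The counts were tested with edgeR 4.0.16 in R 4.3.3 (filterByExpr with min.count 10 and min.total.count 15, TMM scaling, robust quasi-likelihood fit of all 9 libraries by group, 6 residual degrees of freedom, 2-sided, Benjamini-Hochberg over 14637 genes). The procedure was tested on simulated data in which no library was made to stand apart, so that test does not cover a library such as replicate 3 of fPS 100. CPM use the TMM-scaled library total. The standard error (SE) of a log2 fold change is its size over the square root of F. Levels between genes use the authors' log2 values. Total counts of 16.4M to 29.3M make a limit of 3 reads 0.102 to 0.183 CPM, on raw totals without TMM scaling. Limits on reads cover counting error only. Intervals of log2 fold changes use the SE of the edgeR fit, which includes the spread among the libraries. Libraries of a group differed by more than sampling noise in all pairs. Alternatives were RLE and upper-quartile scaling, other filters, a non-robust fit, DESeq2 1.42.0, limma-voom (limma 3.58.1), limma on the authors' log2 values, only the compared groups, a replicate block, ribosomal RNA genes removed, repeated symbols on separate rows and each library left out. The counts of the 5 lists, and the list and marker genes, without replicate 3 of fPS 100 were chosen after seeing the data.

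Values in every library are given for genes called in a comparison and for the 5 with the highest mean CPM. From each list at most 3 genes with the smallest adjusted p for fPS 100 against control are named, and only where called; some genes are not reported here. KLF4, PI3, KLK11, ST14, CTSV, CEBPA, BLMH, CD68, CDH5, KRT5, KRT14, SFN and the genes called without replicate 3 were named after their values were seen. The same holds for KRT15, PERP, TP63, ITGB4, COL3A1 and TGM2, and for S100A7, S100A8, S100A9, S100A12, KRT6B, SERPINB3 and SERPINB4. The genes, lists and tests were chosen with earlier results of these data known.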

Additional observations from a re-analysis of the deposited data

How the results depend on the processing

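Over all alternatives, 701 fold changes of the 12 genes kept direction and side of the threshold, 18 lost a call, 6 gained 1 and 10 changed sign. SPRR1B, LCE1C, SPRR1A and PPL kept their calls for fPS 100 against control in every alternative that tested them. For that comparison genes called numbered 3 with at least 1 CPM in 3 libraries, where SPRR1A and LCE1C were not tested, and 4 to 5 with a library left out, and all genes called were 3249 to 5658 with a library left out, around 4393. For fPS 25 against control they were 2 without the filter (PPL and SPRR1B), 0 with at least 1 CPM, 0 in DESeq2 (ASPRV1 had no adjusted p), 2 with only the compared groups (ASPRV1 and SPRR1B) and 0 to 2 with a library left out. All genes called there were 768, against 1237 without the filter, 1233 in DESeq2, 1511 with only the compared groups and 135 to 1946 with a library left out. For fPS 100 against fPS 25 they were 5 without the filter (SPRR2D and SPRR2E among them, mostly from reads of 1 library), 0 with at least 1 CPM, 1 in limma-voom (SPRR1A lost, adjusted p = 0.0680), 1 with the authors' log2 values (SPRR1A lost, adjusted p = 0.0773) and 1 to 2 with a library left out. All genes called there ranged from 1018 to 2706 with a library left out, around 2012. The cause of these shifts was not tested. Changes of sign were all in differences that did not pass. For fPS 25 against control TGM1 was −0.0051 with at least 1 CPM and −0.0103 in limma-voom. With a library left out TGM1 ran from −0.15 to 0.14, EVPL from −0.076 to 0.0060 and CNFN from −0.44 to 0.091, and EVPL was 0.0013 with the authors' log2 values. For fPS 100 against fPS 25 IVL ran from −0.71 to 0.071. Libraries that share a replicate number did not deviate together (0 of 9 pairs over a correlation of 0.1, range −0.39 to 0.03). With 3 libraries per group this cannot exclude that libraries of the same number were prepared together, and the labels do not say. With a replicate block, fPS 100 against control gave 5 called genes among the 12 and 3510 among all, fPS 25 against control gave 0 (ASPRV1 lost, adjusted p = 0.0814) and 318, and fPS 100 against fPS 25 gave 2 and 1399. Depth limits the 38 genes that were not tested.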
